A study of Homo sapiens with 2 samples.

Results

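The 10 genes described here encode transcription factors, or subunits of them, that set the myeloid lineage. They are SPI1, GFI1, RUNX1, CBFB, MYB, LMO2, GATA2, CEBPA, CEBPB and CEBPE, taken by gene symbol from the 11619 genes with a deposited value. All 10 had a value in both libraries. They were followed in NB4 cells, a human acute promyelocytic leukemia (APL) line that carries the PML/RARα fusion, on day 3 after lentiviral infection. One library came from cells given an shRNA against the long non-coding RNA CRNDE (sh-CRNDE), and the other from cells given a non-targeting shRNA (sh-Control). The cells of both groups were grown in the same medium, and they differed by the shRNA. Per the study's methods the vector carried the marker ZsGreen1, and which of its CRNDE shRNAs the sequenced cells received was not stated. The comparison asks how the lineage factor genes differed when CRNDE was knocked down. With 1 library per group there was no replicate check, no error could be attached to any value, and no p-value is given.

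Myeloid progenitors become granulocytes or monocytes under a small set of factors that act in combination. SPI1 (PU.1) and the C/EBP factors switch on granule, receptor and adhesion genes. RUNX1 with its partner CBFB opens many of the same enhancers, and GATA2, LMO2 and MYB belong to the program of immature progenitors. GFI1 represses monocytic and progenitor genes on the way to neutrophils, and C/EBPε drives the last granulocytic steps. In APL, maturation is held at the promyelocyte, the stage in which MPO and the serine proteases of the primary granules are made.

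The values are FPKM, fragment counts divided by transcript length and by the total of mapped fragments, so levels of different genes can be compared per length. A change is the difference of log2(FPKM + 1) between the libraries, positive where sh-CRNDE is higher, and it counts as past the threshold beyond 1.5-fold, which is 0.585 on this scale. The pseudocount of 1 understates changes of low genes. CRNDE itself was at 5.92 FPKM under sh-Control and 1.85 FPKM under sh-CRNDE, a change of -1.28, and GAPDH was at 942 and 785 FPKM, a change of -0.26. Median levels were alike, 3.95 FPKM under sh-Control and 3.89 FPKM under sh-CRNDE, and the median change of all genes was -0.01. A mitochondrial rRNA gene held 16.2% of the summed FPKM of sh-CRNDE and was at 0 in sh-Control. Of the marker lists of 5 groups of blood lineages, that of promyelocytes had the highest summed level in both libraries. MPO was at 1135 FPKM under sh-Control and 738 FPKM under sh-CRNDE, CD33 was at 4.46 and 3.74 FPKM, and ELANE had no value here. The markers of late neutrophils, red cells with megakaryocytes, and lymphocytes summed to 1.08, 0.398 and 2.58 FPKM in sh-Control and to 1.31, 0.542 and 2.11 FPKM in sh-CRNDE.

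Of the 10 factor genes, 5 were past 1.5-fold, against 17.2% of all genes. CEBPA, CEBPB, CEBPE and CBFB were higher in sh-CRNDE, a direction taken by 8.38% of all genes, and GATA2 was lower, as were 8.83% of all genes. CEBPA and CEBPB are at 0 in sh-Control, which leaves 3 of 8 genes once values of 0 are set aside, against 14.9% of all genes above 0 in both libraries. SPI1, GFI1, RUNX1, MYB and LMO2 did not pass. The changes of the 8 genes with values above 0 had a median of -0.27. Because genes enter the deposited list through a level above 0.5 FPKM in at least 1 library, a gene at 0 in the other library had to pass the threshold. The 10 genes were chosen with earlier results of these data known. The study itself names CEBPA, CEBPB, CEBPE and GATA2 as affected by the knockdown. The share of the 10 genes past the threshold is therefore a description and no test. The study also reports a check of representative affected genes by qRT-PCR. It cites that figure together with its gene table for CEBPA, CEBPB and CEBPE, and the PCR values are not part of the data used here.

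**Figure D1:**
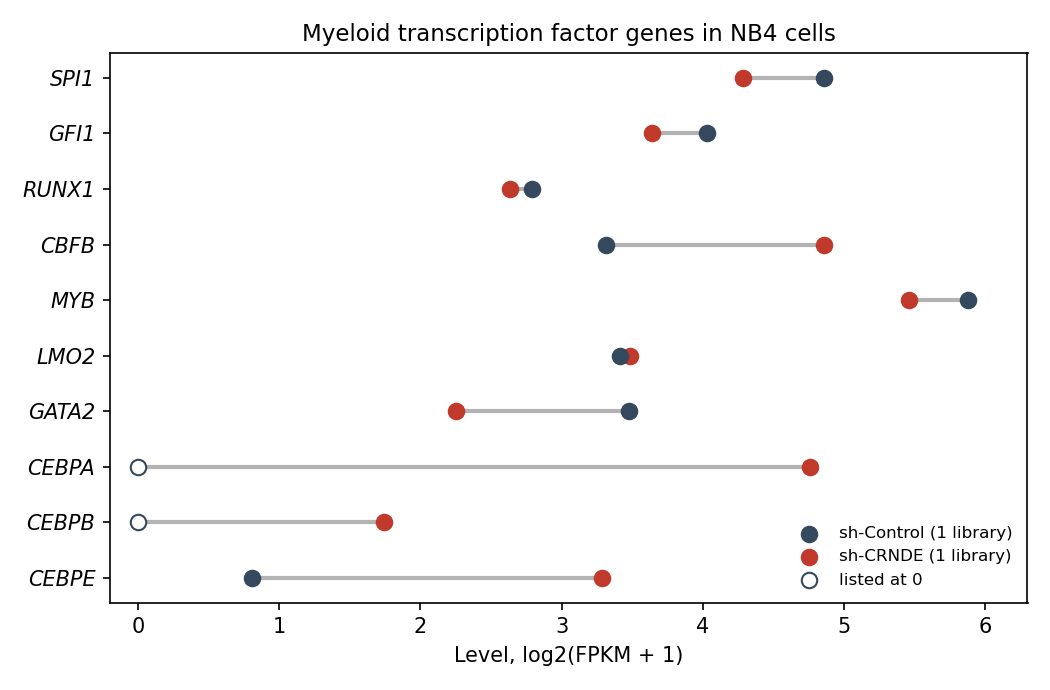
Level of the 10 factor genes as log2(FPKM + 1) in sh-Control (dark points) and sh-CRNDE (red points), 1 library each, with open points for values of 0 and a bar joining the libraries. MYB is highest in both libraries, the 3 C/EBP genes and CBFB lie to the right in sh-CRNDE, and GATA2 lies to the left.

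In sh-Control the order of levels ran from MYB at 57.9 FPKM through SPI1 at 28.0, GFI1 at 15.3, GATA2 at 10.1, LMO2 at 9.65, CBFB at 8.95, RUNX1 at 5.92 and CEBPE at 0.748 FPKM. In sh-CRNDE it ran from MYB at 43.0 FPKM through CBFB at 28.0, CEBPA at 26.1, SPI1 at 18.5, GFI1 at 11.5, LMO2 at 10.2, CEBPE at 8.75, RUNX1 at 5.22, GATA2 at 3.76 and CEBPB at 2.34 FPKM. CBFB moved from rank 6 to rank 2, and GATA2 from rank 4 to rank 9. CEBPA, at 0 in sh-Control, held rank 3 in sh-CRNDE, and the ranks below it there depend in part on that value. Since no spread between replicates was measured, neighbours in either order cannot be called different. RNA was taken from whole cultures, in which fewer cells expressing a gene and less RNA per cell cannot be told apart.

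All 3 C/EBP genes were higher in sh-CRNDE past 1.5-fold, as were 8.38% of all genes. For CEBPA and CEBPB, at 0 in sh-Control, this direction followed from being listed. The 3 genes encode basic leucine zipper proteins that pair with one another. CEBPA, the gene for the factor that commits progenitors to the granulocytic and monocytic path, lies on chromosome 19 from 33299934 to 33302534 on the minus strand (GRCh38, GENCODE release 44). Its level in sh-CRNDE was 26.1 FPKM, above that of 90.9% of all genes, while sh-Control lists it at 0. CEBPB, which encodes the factor of monocyte activation and emergency granulopoiesis, lies on chromosome 20 from 50190830 to 50192668 on the plus strand. It reached 2.34 FPKM in sh-CRNDE and is likewise at 0 in sh-Control, so no fold is given for either gene.

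Both genes consist of 1 exon, and single-exon genes held most of the zeros in the files. A value of 0 in 1 library was found for 37.1% of 688 single-exon genes and for 0.518% of 10820 genes with more exons. Among 137 single-exon protein-coding genes the share was 34.3%. The zeros fell on both sides, as sh-Control had 145 such single-exon genes and sh-CRNDE 110. The part of this pattern in the values of CEBPA and CEBPB was not tested. The exons of CEBPA share 659 and 482 bases with a pair of lncRNA genes on the opposite strand, and those of CEBPB share 231 bases with CEBPB-AS1. The library kit as named does not mark strand, and the 3 lncRNA genes had no value here.

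CEBPE, which encodes the factor required for the secondary granules of neutrophils, has 2 exons and a value above 0 in both libraries. It lies on chromosome 14 from 23117036 to 23120256 on the minus strand. Its level was 0.748 FPKM under sh-Control and 8.75 FPKM under sh-CRNDE, an FPKM ratio of 11.7. The change of 2.48 was higher than that of 99.5% of all genes. The summed level of CEBPA, CEBPB and CEBPE was 0.748 FPKM under sh-Control and 37.1 FPKM under sh-CRNDE, and CEBPA made up most of the latter. The sh-Control sum is CEBPE alone, because CEBPA and CEBPB are listed at 0 there, so no fold is drawn from the sums.

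The other C/EBP genes, taken from a list of partner genes, were CEBPG and CEBPD. CEBPG encodes a family member that lacks a strong activation domain and dimerizes with the others. It was at 0.477 FPKM under sh-Control and 12.4 FPKM under sh-CRNDE, an FPKM ratio of 26.1 and a change of 3.19, and it has 2 exons. CEBPG starts 71.2 kb from CEBPA on the same chromosome and the opposite strand. The other listed gene that starts within 150 kb of CEBPA was LRP3, at 6.71 and 4.70 FPKM in sh-Control and sh-CRNDE, with a change of -0.43 that did not pass. CEBPD, a single-exon gene, had its 0 in sh-CRNDE instead, against 0.571 FPKM under sh-Control. Of these 5 family genes, 4 were thus higher and 1 lower in sh-CRNDE, beside 8.38% and 8.83% of all genes, and 3 of the 5 rest on a value of 0. CEBPG, under 0.5 FPKM in sh-Control, was listed through its level in sh-CRNDE. Its direction, though not the size of its change, followed from being listed, as did the directions of the 3 genes at 0. CEBPE alone of the 5 exceeded 0.5 FPKM in both libraries, so the count is no result about the family.

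**Figure D2:**
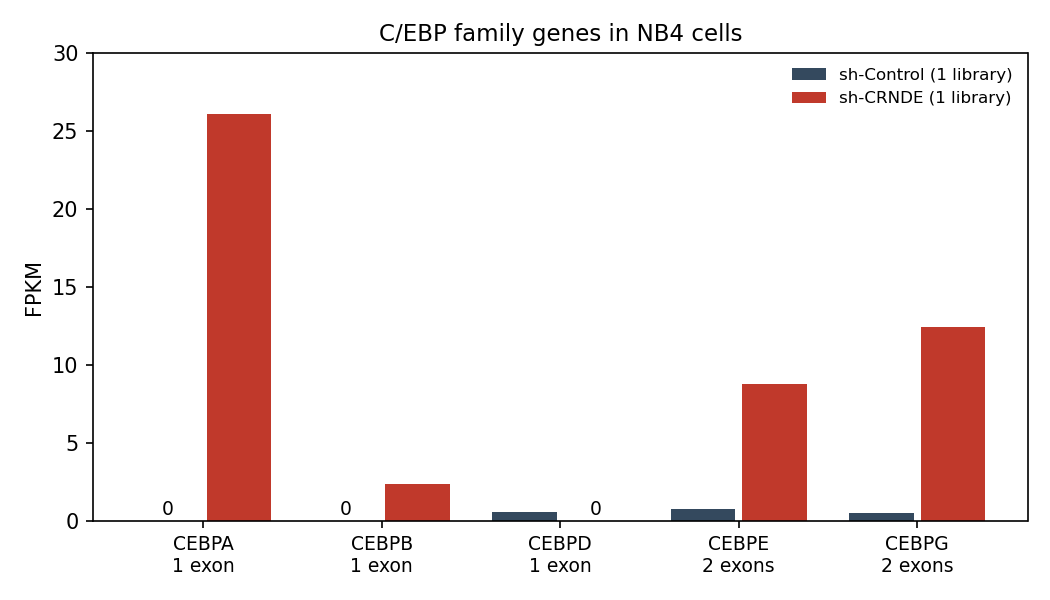
FPKM of 5 C/EBP family genes in sh-Control (dark bars) and sh-CRNDE (red bars), 1 library each, with a 0 where the file lists 0 and the exon number of the canonical transcript under each name. CEBPA (26.1), CEBPG (12.4), CEBPE (8.75) and CEBPB (2.34) show bars in sh-CRNDE, and no bar of sh-Control reaches 1 FPKM.

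The sequences before the starts of these genes are shown because CEBPA and CEBPG lie close together and were both higher, as was CEBPE on another chromosome, while GATA2 was lower. Each line gives the 150 bases before a RefSeq start (GRCh38.p14), 5′ to 3′ on the gene's strand, with CpG dinucleotides in capitals. GATA2 and CEBPG each have another RefSeq start that is not printed, with 14 and 22 CpG dinucleotides in its window.
CEBPA, chr19:33302535-33302684, minus strand: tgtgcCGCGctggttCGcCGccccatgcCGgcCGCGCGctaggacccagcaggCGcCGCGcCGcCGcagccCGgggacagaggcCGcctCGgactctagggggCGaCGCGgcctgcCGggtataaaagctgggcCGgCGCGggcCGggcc
CEBPG, chr19:33373559-33373708, plus strand: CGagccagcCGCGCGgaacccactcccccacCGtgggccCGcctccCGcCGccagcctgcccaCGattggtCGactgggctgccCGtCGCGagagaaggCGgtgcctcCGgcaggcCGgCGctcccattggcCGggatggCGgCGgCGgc
CEBPE, chr14:23119256-23119405, minus strand: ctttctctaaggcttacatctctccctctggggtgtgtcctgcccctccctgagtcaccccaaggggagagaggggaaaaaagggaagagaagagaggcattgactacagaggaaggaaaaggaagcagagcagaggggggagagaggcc
GATA2, chr3:128493202-128493351, minus strand: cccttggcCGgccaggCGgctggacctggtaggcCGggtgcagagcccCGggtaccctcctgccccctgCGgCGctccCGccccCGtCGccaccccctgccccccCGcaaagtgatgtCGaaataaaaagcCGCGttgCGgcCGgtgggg

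The window of CEBPA holds 24 CpG dinucleotides, that of CEBPG 21, that of GATA2 15 and that of CEBPE 0, against a median of 7 over 35093 promoters. GC content was 79.3%, 78.0%, 74.0% and 56.0% in the same order, with a median of 60.0%. Among these printed windows, chosen after the values were seen, those of the higher genes were CpG-rich or, for CEBPE, CpG-free. The window of GATA2, the lower gene, was CpG-rich. The longer promoter of CEBPE, searched for motifs below, holds 2 CpG dinucleotides, against a median of 14. The directions of CEBPA and CEBPG followed from being listed, so no link between CpG content and direction is drawn.

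The promoters of 7 of the 10 genes were present in the RefSeq table, with 11 starts in all, and SPI1, CBFB and LMO2 were not analysed in this way. Short motifs were searched on both strands from 250 bases before to 50 bases after the start. The ETS motif GAGGAAG, of the kind bound by SPI1, is in 13.6% of all promoters and in 1 of the 11, that of CEBPE, 41 bases before the start. With 8 bases on each side (capitals mark the motif) it reads as follows.
CEBPE, chr14:23119282-23119304, minus strand: tgactacaGAGGAAGgaaaagga
The C/EBP motif TTGCNNAA is in 10.5% of all promoters and in 1 start of GFI1, 142 bases before it, and the RUNX motif TGTGGT, in 13.1% of all promoters, is in the same start of GFI1, 47 bases before it.
GFI1, C/EBP motif, chr1:92486226-92486249, minus strand: ctggccacTTGCGCAAaggagcgc
GFI1, RUNX motif, chr1:92486133-92486154, minus strand: gtgaagctTGTGGTtttggggg
The MYB motif AACTG, in 39.8% of all promoters, is in 1 start of GFI1 and in that of CEBPE, and the GATA motif AGATAA, in 10.3% of all promoters, is in 0 of the 11. These matches describe the letters and say nothing of binding.

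GATA2 was the only 1 of the 10 genes that passed the threshold downward in these libraries. It encodes a zinc finger factor that keeps stem and progenitor cells immature. The gene lies on chromosome 3 from 128479427 to 128493201 on the minus strand and has 6 exons in its canonical transcript. Over all its annotated transcripts, its exons share 78 bases with the antisense gene GATA2-AS1, which had no value here. The level of GATA2 was 10.1 FPKM under sh-Control and 3.76 FPKM under sh-CRNDE, which is 2.69-fold lower by FPKM ratio. The change was -1.22, and 2.20% of all genes had a lower one. Among 4918 genes of more than 1 exon, above 0 in both libraries and with a mean of at least 5 FPKM, 1.93% had a lower change, and 8.50% were lower past 1.5-fold.

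The other genes of the GATA family and its cofactor were low. GATA1, which drives red cell and megakaryocyte genes, was at 1.74 FPKM under sh-Control and 1.06 FPKM under sh-CRNDE. ZFPM1, its cofactor FOG1, was at 0.843 and 0.501 FPKM. Neither passed the threshold, and GATA3 had no value here. Of the genes listed as GATA2 targets, 2 of 7 had a value. One was GATA1 itself, and the other was HDC, the histamine-forming enzyme of basophils and mast cells, at 45.2 FPKM under sh-Control and 58.6 FPKM under sh-CRNDE, which did not pass either.

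The subunits of the core binding factor differed from each other. RUNX1 encodes the DNA-binding subunit and lies on chromosome 21 from 34787801 to 36004667 on the minus strand. It was at 5.92 FPKM under sh-Control and 5.22 FPKM under sh-CRNDE, a change of -0.15, and 34.1% of all genes had a lower one. CBFB encodes the partner that strengthens DNA binding and protects RUNX proteins from breakdown. It lies on chromosome 16 from 67028984 to 67101058 on the plus strand and has 6 exons.

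CBFB was at 8.95 FPKM under sh-Control and 28.0 FPKM under sh-CRNDE, an FPKM ratio of 3.13 and a change of 1.54. Only 1.32% of the 4918 well-expressed genes defined above had a higher change, and 7.91% of them were higher past 1.5-fold. The FPKM ratio of CBFB to RUNX1 was 1.51 under sh-Control and 5.37 under sh-CRNDE. None of the 7 listed genes that start within 150 kb of CBFB passed the threshold. In the same window, CEBPE had 6 listed neighbours, of which 1 passed, CDH24, lower at 2.64 and 1.05 FPKM in sh-Control and sh-CRNDE. CEBPB had 2, of which 1 passed, UBE2V1, lower at 24.6 and 6.33 FPKM, and GATA2 had 0 neighbours.

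Of the other RUNX genes, 1 passed the threshold upward. RUNX2, best known from bone, was at 1.09 FPKM under sh-Control and 3.51 FPKM under sh-CRNDE, a change of 1.11 past the threshold. RUNX3 was at 4.12 FPKM and 6.52 FPKM, an FPKM ratio of 1.58, and with the pseudocount its change of 0.55 stayed under 0.585. The corepressor genes CBFA2T2 and CBFA2T3 did not pass, and CBFA2T3 was at 6.40 FPKM under sh-Control and 5.06 FPKM under sh-CRNDE.

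SPI1 was just short of the threshold. It encodes the ETS factor PU.1, whose dose directs progenitors towards monocytes, granulocytes or B cells, and lies on chromosome 11 from 47354860 to 47378547 on the minus strand. Its level was 28.0 FPKM under sh-Control and 18.5 FPKM under sh-CRNDE. The FPKM ratio was 1.52 in favour of sh-Control, and the change with the pseudocount was -0.575, within 0.0098 of the 0.585 required. With a pseudocount of 0.1 it was -0.60 and past the threshold, and relative to the median of genes in the same GC bin it was -0.27. The canonical SPI1 transcript has a GC content of 65.2%. By FPKM ratio SPI1 stood 2.77-fold above GATA2 in sh-Control and 4.91-fold above it in sh-CRNDE.

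None of the 6 ETS family genes with a value passed the threshold. ELF1 was at 35.2 FPKM under sh-Control and 26.3 FPKM under sh-CRNDE, ETV6 at 19.1 and 17.9 FPKM, and FLI1 at 7.13 and 7.37 FPKM. Of 15 genes listed as SPI1 targets, 13 had a value, with 1 higher and 1 lower past the threshold. These are 15.4% of the 13, beside 17.2% of all genes. FCGR1A, the high-affinity IgG receptor CD64, was at 3.17 FPKM under sh-Control and 6.60 FPKM under sh-CRNDE, a change of 0.87, and its reads can also fit near-identical copies of the gene. CYBB, the catalytic subunit of the phagocyte oxidase, was at 42.0 FPKM under sh-Control and 26.4 FPKM under sh-CRNDE, a change of -0.65. ITGAM, which encodes CD11b, was at 2.31 and 2.43 FPKM, and the median change of the 13 genes was 0.05. The study measured CD11b protein by flow cytometry and reports more CD11b-positive NB4 cells after the knockdown, a measure unlike the RNA level given here.

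MYB, GFI1 and LMO2 did not pass the threshold. MYB encodes a factor of progenitor self-renewal and proliferation and lies on chromosome 6 from 135181308 to 135219173 on the plus strand. It was at 57.9 FPKM under sh-Control and 43.0 FPKM under sh-CRNDE, a change of -0.42, and had the highest level of the 10 genes in both libraries. The antisense gene MYB-AS1, which shares 103 exonic bases with it, was at 1.32 and 1.83 FPKM. GFI1 encodes a zinc finger repressor and lies on chromosome 1 from 92473043 to 92486925 on the minus strand. It was at 15.3 FPKM under sh-Control and 11.5 FPKM under sh-CRNDE, a change of -0.38.

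LMO2 encodes the LIM adaptor that bridges GATA and TAL1 proteins and lies on chromosome 11 from 33858576 to 33892076 on the minus strand. It was at 9.65 FPKM under sh-Control and 10.2 FPKM under sh-CRNDE, and its change of 0.07 was the smallest in size of the 8 genes above 0 in both libraries. LYL1, a TAL1 relative, was at 8.17 FPKM under sh-Control and 9.78 FPKM under sh-CRNDE, and LDB1 was at 13.8 and 12.4 FPKM. Of 7 genes of the complex with a value, 0 passed the threshold, and TAL1 had no value here.

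**Figure D3:**
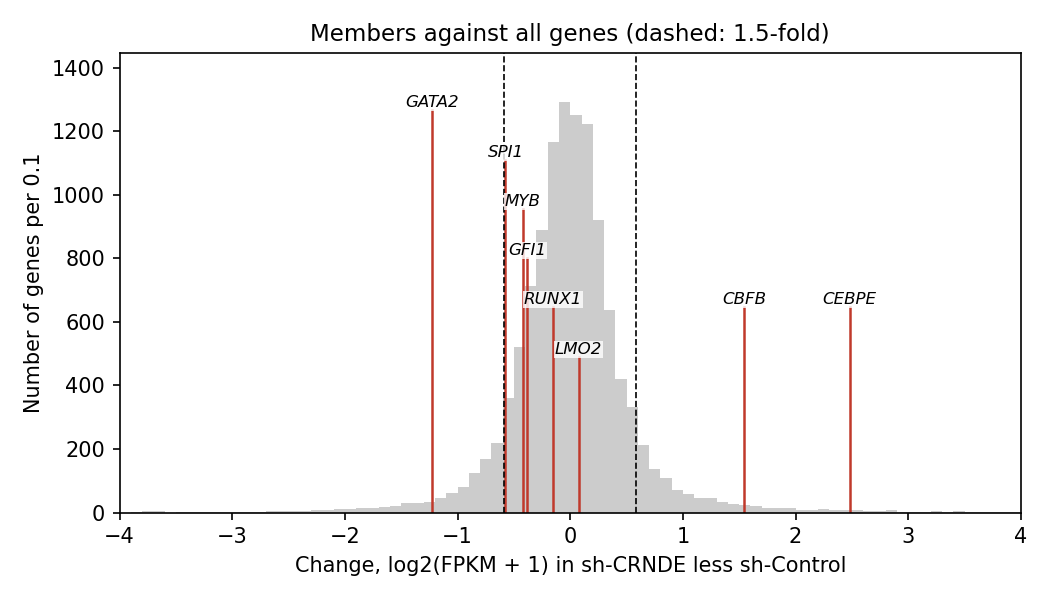
Changes of the 8 factor genes above 0 in both libraries (red lines; line height has no meaning) over the distribution of all genes in bins of 0.1 (grey bars), with dashed lines at 1.5-fold and 26 genes beyond 4 left off the axis. CBFB (1.54) and CEBPE (2.48) lie to the right of the threshold, GATA2 (-1.22) to the left, and SPI1 (-0.58) next to the left line.

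The genes of cofactors and family members form the next list. Of 40 such genes, 31 had a value, with 2 higher and 2 lower past 1.5-fold. These are 12.9% of the 31, beside 17.2% of all genes, and with a pseudocount of 0.1 or 0.01 or after rescaling to TPM the count was 8. The higher were CEBPG and RUNX2, and the lower were CEBPD and EP300. EP300, a histone acetyltransferase that MYB recruits, was at 8.38 FPKM under sh-Control and 5.18 FPKM under sh-CRNDE, a change of -0.60. Its paralog CREBBP was at 5.25 and 4.34 FPKM and did not pass. The corepressors through which GFI1 acts did not pass either. KDM1A, a histone demethylase, was at 32.5 FPKM under sh-Control and 34.7 FPKM under sh-CRNDE, and HDAC1 was at 33.7 and 34.8 FPKM. MYBL2, a MYB relative of dividing cells, was at 91.5 FPKM under sh-Control and 75.5 FPKM under sh-CRNDE.

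Of 26 other blood transcription factor genes, 17 had a value, and 0 were higher and 2 lower past 1.5-fold. These are 11.8% of the 17, beside 17.2% of all genes. The count was 4 with a pseudocount of 0.1 or 0.01 or after rescaling to TPM, 1 after quantile normalization or relative to genes of like GC content, and 0 at 2-fold. IRF1, an interferon-induced factor, was at 2.47 FPKM under sh-Control and 1.01 FPKM under sh-CRNDE, a change of -0.79. HLX, a homeobox factor of blood progenitors, was at 1.43 and 0.606 FPKM, a change of -0.60. IKZF1, the Ikaros gene, was at 14.7 FPKM under sh-Control and 19.0 FPKM under sh-CRNDE and did not pass, and HOXA10 was at 9.36 and 12.5 FPKM. The median change of the 17 genes was -0.08, beside -0.01 over all genes.

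Genes known as targets of the factors form the last list. Of 53 such genes, 30 had a value, and 2 were higher and 5 lower past the threshold, with a median change of -0.20. The 7 are 23.3% of the 30, beside 17.2% of all genes, and the count was 12 or 13 with a pseudocount of 0.1 or 0.01, 11 after rescaling to TPM and 2 at 2-fold. CEBPE is among the 30 as a target of C/EBPα. Leaving out the factor genes themselves, 1 of 27 was higher (FCGR1A) and 5 were lower. Of the 10 secondary granule and neutrophil genes listed for C/EBPε, 3 had a value. MMP9, gelatinase B, was at 17.8 FPKM under sh-Control and 13.9 FPKM under sh-CRNDE, CAMP was at 0.574 and 0.374 FPKM, and DEFA4 was at 0.835 and 0.483 FPKM. None of the 3 passed.

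Of the genes listed for C/EBPα, 6 had a value, with CEBPE higher and MPO and CTSG lower. Over all genes, 8.38% were higher and 8.83% lower past 1.5-fold. MPO, myeloperoxidase, had a change of -0.62. CTSG, cathepsin G, was at 30.8 FPKM under sh-Control and 15.3 FPKM under sh-CRNDE, a change of -0.96. The receptor genes CSF3R, at 1.64 and 1.13 FPKM, and IL6R, at 8.83 and 8.18 FPKM, did not pass.

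For MYB, 5 of 8 listed targets had a value, and 3 were lower past the threshold, beside 8.83% of all genes. Besides MPO these were PRTN3, proteinase 3, at 201 FPKM under sh-Control and 41.8 FPKM under sh-CRNDE, and MYC at 43.8 and 26.9 FPKM. MPO is listed for C/EBPα, MYB and RUNX1 alike, so the groups of targets are not separate. The cyclin gene CCNB1 was at 72.0 FPKM under sh-Control and 83.0 FPKM under sh-CRNDE and did not pass. The 3 listed targets of RUNX1 with a value were MPO, CSF1R at 1.14 and 0.559 FPKM, and SPI1 itself, and MPO alone of the 3 passed. For GFI1, which represses its targets, 3 of 9 genes had a value, all under 2 FPKM in both libraries and none past the threshold.

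The markers of blood lineages are given beside these values. Of 6 promyelocyte markers 5 had a value and 4 were lower past 1.5-fold, beside 8.83% of all genes. These were MPO, CTSG, PRTN3 and AZU1, the azurocidin gene, which was at 33.2 FPKM for sh-Control and 15.1 FPKM for sh-CRNDE. MPO, CTSG and PRTN3 are also counted among the targets above, and the markers were chosen with earlier results of these data known. The summed level of the 5 promyelocyte markers was 1404 FPKM under sh-Control and 814 FPKM under sh-CRNDE. Of the monocyte markers, FCGR1A was higher past the threshold, at the values given above, and CD14 had no value here. CSF1R, the M-CSF receptor, was at 1.14 FPKM for sh-Control and 0.559 FPKM for sh-CRNDE and did not pass. Among the late neutrophil markers, 2 of 6 had a value, and neither passed. Of 3 lymphoid markers with a value, CD79A, a B cell receptor subunit, was lower past the threshold, at 1.02 FPKM for sh-Control and 0.256 FPKM for sh-CRNDE. The part of cell composition in the factor gene values was not tested.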

How the data were processed

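RNA of NB4 cells was analysed in 2 libraries, 1 per group, assigned from their treatment labels. The authors deposited FPKM values per gene. The submitters' processing notes name fastp 0.20.0, HISAT2 2.0.4, StringTie 1.2.3 and build GRCh38, and the study's methods name the TruSeq RNA kit v2 and Ballgown. The annotation release is not given in the sources used here. Every listed gene exceeds 0.5 FPKM in at least 1 library. Depth is unknown, because the values keep no read counts, so no counting interval is given.

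Ensembl identifiers served to match genes, and 11508 of 11619 were found in GENCODE release 44, from which coordinates, exon number and GC content of the canonical transcript were taken. Changes were computed from log2(FPKM + 1) without further scaling. The pseudocount and the 1.5-fold threshold are the study's, and no test was run, as each group has 1 library. The rule was checked on simulated data. The 10 members and the gene lists (partners, other factors, targets, markers) come from general knowledge and were chosen with earlier results of these data known. Named genes are the members, CRNDE, GAPDH, listed genes past the threshold or at 0 in 1 library, and the nearest partners or targets of a member. LRP3, CDH24, UBE2V1, IKZF1, HOXA10, CD33 and the mitochondrial rRNA gene were chosen after their values were seen, and so were the 150 kb window around members and the choice of the printed sequences. One monocyte marker, and the summed level of that list, are not reported here. Promoters come from RefSeq (GRCh38.p14). Alternatives changed the pseudocount, scaling, GC content (10 bins), threshold and filters. Python 3.11.15, numpy 2.4.6, pandas 2.3.3 and matplotlib 3.10.9 were used.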

Additional observations from a re-analysis of the deposited data

How the results depend on the processing

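No paired analysis was possible because each group has 1 library, and for the same reason no library could be left out. Of 93 recomputed values, 70 kept their direction and their side of 1.5-fold or, for counts, stayed within 1.5 times the count given above. For each of the 8 factor genes above 0 in both libraries the sign of the change held under every pseudocount, scaling and GC alternative run, with ranges of 2.48 to 3.53 for CEBPE, 1.38 to 1.64 for CBFB and -1.43 to -1.03 for GATA2. SPI1 crossed the threshold with a pseudocount of 0.1 (-0.598) or 0.01 (-0.600), after quantile normalization (-0.594) and after rescaling to TPM (-0.609), and each of these gave 6 factor genes past it, 4 higher and 2 lower. Rescaling to TPM raises the values before the pseudocount of 1 is added, so it also acts as a smaller pseudocount and is not a separate check of scaling. Leaving out genes at 0 removed CEBPA and CEBPB and gave 3. With a pseudocount of 0.1 or 0.01 the counts were 3301 or 3481 of all genes, 8 or 8 partners, 4 or 4 other factors and 12 or 13 targets, and after rescaling to TPM they were 3133, 8, 4 and 11, with 2 of these 11 targets higher and 9 lower. With a threshold of 2-fold they were 774, 2, 0 and 2, and the factor genes still counted 5. The other factors counted 1 after quantile normalization and 1 after the GC alternative. A single library per group limits every value.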
